A study of Mus musculus with 4 samples.

Results

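The members described here are the nuclear genes of 2 rotary proton machines, the mitochondrial ATP synthase and the vacuolar H+-ATPase (V-ATPase), in primary mouse pancreatic acinar cell cultures with and without excess estrogen-related receptor γ (ERRγ, gene Esrrg). Rows were picked by gene symbol, and the families were chosen with earlier results of these data known. Of the 23282 rows in each count table, 21 had a symbol beginning with Atp5 or equal to Atpif1, Usmg5, Atpaf1 or Atpaf2 (ATP synthase). Another 26 began with Atp6v or Atp6ap (V-ATPase), which gave 47 members. Cells of strain C57BL/6J were kept in serum-containing Waymouth's medium with a trypsin inhibitor and 25 ng/ml epidermal growth factor. They carried an adenovirus for ERRγ or, as the control, an adenovirus for green fluorescent protein (GFP), each at a multiplicity of infection of 100 for 36 h, so the control cells were virus-exposed too. Each virus has 2 libraries, numbered 1 and 2, each started from 500 ng of RNA and prepared by QuantSeq (Lexogen), which reads the poly(A) end of transcripts. The labels do not say whether the libraries of a virus came from separate animals or cultures, so a p-value here measures only the spread between these libraries, which may be technical.

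Both enzymes couple the turning of a membrane ring to a soluble head that binds ATP, but they run in opposite directions. ATP synthase, in the inner mitochondrial membrane, lets protons flow back through its Fo part and uses the turn to make ATP in its F1 head. The V-ATPase spends ATP in its V1 head to push protons through its V0 part into lysosomes, endosomes and secretory granules, and in the exocrine pancreas it is known for acidifying maturing zymogen compartments. ERRγ is an orphan nuclear receptor known for driving genes of oxidative phosphorylation in heart and other oxidative tissues.

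Counts totalled 10105604 to 11012351 per library, and the ribosomal RNA precursor Rn45s took 9.48% to 14.4% of them. Levels are CPM (a count divided by the library size and set to a common total) on library sizes scaled by TMM, a method that balances the bulk of genes between libraries. A floor of 3 counts equals 0.268 to 0.307 CPM. Esrrg had 1453 and 12994 counts in ERRγ libraries 1 and 2 against 86 and 107 in GFP libraries 1 and 2. The cultures held little acinar RNA: 10 acinar markers summed to 49.3 to 103 CPM, with Ptf1a at 0 in all libraries, against 2272 and 2774 CPM with ERRγ and 3054 and 2943 CPM with GFP for 6 ductal markers. The label of acinar cells therefore rests on the origin of the cells, not on their enzyme transcripts. Sums of macrophage markers (7 genes) were 49.0 and 72.3 CPM with ERRγ and 95.3 and 91.0 CPM with GFP, most of it Cd14, which fell (log2 fold change -0.74, adjusted p = 0.0488), while Ptprc had 1 count in all and Csf1r had 3.75 and 7.11 against 2.46 and 3.32 CPM. In the ductal list Cftr rose, with 13.2 and 12.7 against 4.60 and 6.28 CPM (log2 fold change 1.25, adjusted p = 0.0444). Krt7 of the same list fell, with 796 and 803 against 1264 and 1245 CPM (adjusted p = 0.0285). In the acinar list Prss2 rose (log2 fold change 2.78, adjusted p = 0.00905), while 7 of the 9 genes tested had values below 0. The acinar sums overlapped, with 96.6 and 96.9 CPM with ERRγ and 103 and 49.3 CPM with GFP. The ductal and macrophage sums and Prss2 thus moved with the virus, and their part in the results that follow was not tested. Fibroblast markers (6 genes) summed to 505 to 743 CPM, endothelial markers (5 genes) to 3.68 to 12.7 CPM and islet markers (5 genes) to 7.31 to 124 CPM. In bulk RNA, fewer cells of a type and less RNA per cell cannot be told apart.

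The promoters are shown first, to give the letters that stand before the start sites of members with large and small changes. RefSeq promoters (build GRCm38.p6, 250 bases before to 50 after each start site) were matched for 20 of 21 ATP synthase members, with 25 promoters, and for 18 of 26 V-ATPase members, with 21 promoters. The core half-site AAGGTCA, searched on both strands, stood in 5 of the 25 ATP synthase promoters (20.0%), in 0 of the 21 V-ATPase promoters and in 4.72% of all 32851 promoters in the table. The longer form TNAAGGTCA, which contains the core, was in 1 ATP synthase promoter, that of Atp5g3, and in 1.28% of all promoters. The E-box core TCACGTGA, known from genes of lysosomes, stood in 3 V-ATPase promoters (14.3%; Atp6v1a, Atp6v0d1 and Atp6v0e), in 0 ATP synthase promoters and in 0.974% of all. The core of the nuclear respiratory factor 1 site, GCATGCGC, was in 3 ATP synthase promoters (12%; Atp5g2, Atp5k and Atp5l), in 2 V-ATPase promoters (9.52%; Atp6v1e1 and Atp6v1f) and in 2.71% of all. The 5 promoters with the core half-site belonged to Atp5g3, Atp5l, Atpif1, Atp5e and Atp5k, of which Atp5g3 and Atp5l passed the expression test below and the other 3 did not. Most ATP synthase members that passed, Atp5a1, Atp5g1 and Atp5f1 among them, had no match to the half-site in a promoter searched. A link between the half-site and the changes was not tested. A match is a run of letters, not a measured binding site. The stretches below run 5′ to 3′ on the strand of the gene with matched letters in capitals, and are shown for the paralogs of ATP synthase subunit c, for Atp5l, and for the V-ATPase catalytic subunit gene Atp6v1a and Atp6v1d, the V-ATPase member that rose. All 6 lie on the minus strand: chr2:73911327-73911426 for Atp5g3, chr9:44920743-44920842 for Atp5l, chr11:96075632-96075731 for Atp5g1, chr15:102671048-102671147 for Atp5g2, chr16:44139310-44139409 for Atp6v1a and chr12:78861639-78861738 for Atp6v1d. They cover the 100 bases before the start site, except for Atp6v1a, where bases -150 to -51 are shown.
Atp5g3: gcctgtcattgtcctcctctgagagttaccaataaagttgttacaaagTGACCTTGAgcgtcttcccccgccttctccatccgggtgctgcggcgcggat
Atp5l: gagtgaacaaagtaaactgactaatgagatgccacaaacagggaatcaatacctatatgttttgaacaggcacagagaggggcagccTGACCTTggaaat
Atp5g1: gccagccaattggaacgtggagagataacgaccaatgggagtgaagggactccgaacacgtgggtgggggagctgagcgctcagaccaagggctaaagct
Atp5g2: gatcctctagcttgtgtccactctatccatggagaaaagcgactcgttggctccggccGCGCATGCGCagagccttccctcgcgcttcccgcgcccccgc
Atp6v1a: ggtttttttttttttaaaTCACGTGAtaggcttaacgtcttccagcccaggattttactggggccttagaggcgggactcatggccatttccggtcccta
Atp6v1d: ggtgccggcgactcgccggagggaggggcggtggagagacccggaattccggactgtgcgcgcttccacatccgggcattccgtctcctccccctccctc
In these stretches the half-site begins 52 bases before the start site in Atp5g3 and 13 bases before it in Atp5l, in both on the reverse strand, and none of the searched motifs is in those of Atp5g1 and Atp6v1d.

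With ERRγ, transcripts of 10 ATP synthase members and 1 V-ATPase member rose. All 21 ATP synthase members were tested, 10 of them rose and none fell, beside 5.06% of the 13070 genes tested that rose and 1.78% that fell. The tested V-ATPase members numbered 20 of 26, of which 1 rose and none fell. The median log2 fold change was 0.58 for the ATP synthase members tested and -0.01 for the V-ATPase members tested, against -0.01 for all genes tested. Every one of the 21 ATP synthase values was above 0 (0.01 to 1.13), whereas the V-ATPase values were 10 above and 10 below 0 (-0.84 to 0.63). Both ERRγ libraries lay above both GFP libraries for 19 of 21 ATP synthase members and for 5 of 20 V-ATPase members, beside 27.4% of all genes. They lay below both GFP libraries for 0 and 4 members, beside 26.6%. Counts of 0 falls came from edgeR's quasi-likelihood test: at an unadjusted p under 0.05, 3 V-ATPase members were lower, limma-voom called 1 of them and DESeq2 called 2, and for ATP synthase all 3 of these counts were 0. All 11 calls kept their sign without any single library, but ended without GFP library 1 (adjusted p of 0.122 to 0.274) and without GFP library 2 (0.0592 to 0.279), fits in which the lone GFP library is assumed to vary like the ERRγ pair. The calls held with either ERRγ library left out, but there the lone ERRγ library is assumed to vary like the GFP pair. The GFP libraries were the closer pair, and these fits called more of all genes, so holding in them is weak support. The difference between the families was not itself tested.

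**Figure D1:**
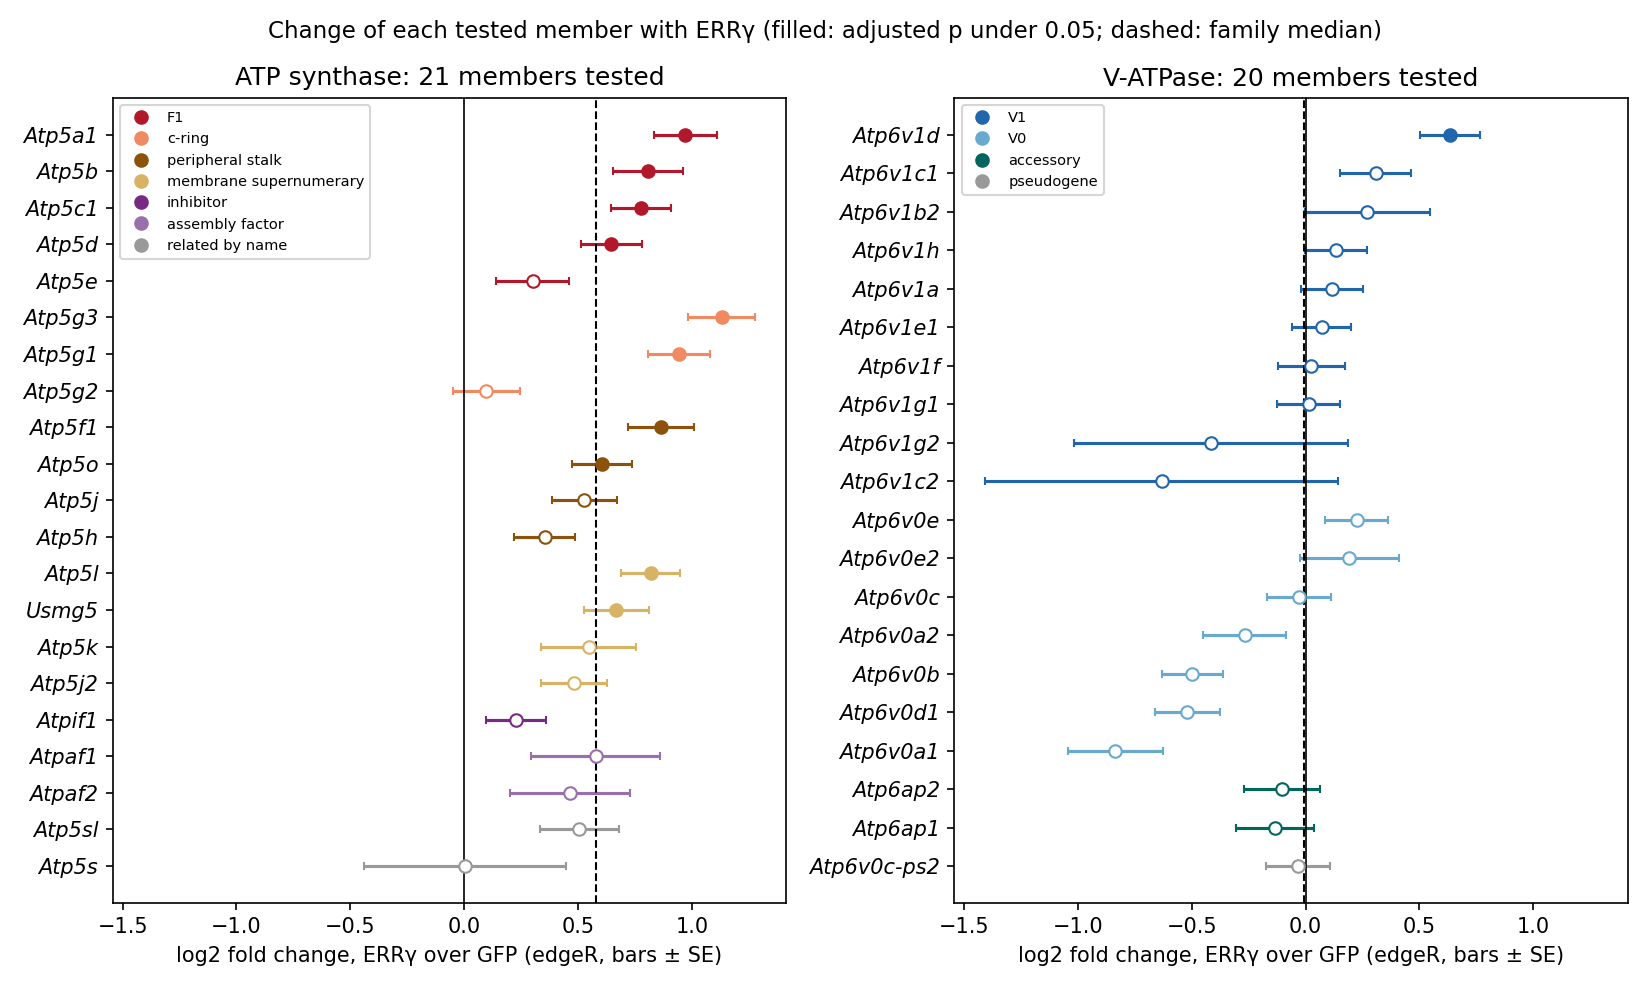
Log2 fold change of ERRγ over GFP (x axis, bars ± SE, edgeR) for the 21 ATP synthase and 20 V-ATPase members tested (rows), coloured by place in the enzyme; filled points have an adjusted p under 0.05 and dashed lines are family medians (0.58 and -0.01). The ATP synthase points lie at or right of 0, and the V-ATPase points scatter on both sides, with Atp6v0a1 of V0 furthest left.

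In the F1 head, the part that makes ATP, 4 of 5 genes rose. Atp5a1, the α subunit that alternates with β around the head, stood at 457 and 524 CPM in ERRγ libraries 1 and 2 and at 252 and 248 CPM in GFP libraries 1 and 2. This was a 1.96-fold rise (a log2 fold change of 0.97 with SE 0.14, adjusted p = 0.00766) with no overlap of the groups. Atp5b, which encodes the catalytic β subunit (chromosome 10, 128083273 to 128090391, plus strand, GRCm38), stood at 465 and 569 against 280 and 310 CPM. Its rise was 1.75-fold (0.81, SE 0.15, adjusted p = 0.0214). The α and β transcripts, whose proteins are used in equal number, thus had means of 490 ± 47.5 and 517 ± 73.2 CPM with ERRγ and 250 ± 3.36 and 295 ± 21.2 CPM with GFP (SD, n = 2), levels that are not divided by length because each transcript is read at its end. Atp5c1, the γ subunit that forms the turning shaft (chromosome 2, 10056016 to 10080510, minus strand), had 127 and 133 against 74.2 and 77.5 CPM, a 1.71-fold rise (0.78, SE 0.13, adjusted p = 0.0135). Atp5d, the δ subunit at the foot of the shaft (chromosome 10, 80138632 to 80145818, plus strand), had 474 and 524 against 327 and 310 CPM, a 1.57-fold rise (0.65, SE 0.14, adjusted p = 0.0308). Atp5e, the small ε subunit beside δ, did not pass: it had 164 and 184 against 158 and 124 CPM (a log2 fold change of 0.30 with SE 0.16, adjusted p = 0.307). Its GFP libraries differed by 0.35 on the log2 scale, more than the fitted change. Atp5a1 and Atp5d overlap Haus1 and Cbarp on the opposite strand, and whether the counting used strand is not given, so these counts could hold reads of the neighbours.

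The c-ring, the rotor that carries protons, is built from a single mature protein encoded by 3 genes that differ in their import sequences, and these genes did not move alike. Atp5g3 (chromosome 2, 73908447 to 73911326, minus strand), whose promoter holds the long half-site shown above, had 1044 and 1046 CPM with ERRγ and 434 and 520 CPM with GFP. It rose 2.19-fold (a log2 fold change of 1.13 with SE 0.15, adjusted p = 0.00548), the largest change among the tested members. Atp5g1 (chromosome 11, 96068852 to 96075670, minus strand) had 126 and 140 against 66.7 and 71.4 CPM, a 1.93-fold rise (0.95, SE 0.14, adjusted p = 0.00777). In contrast, Atp5g2 (chromosome 15, 102662864 to 102672352, minus strand) had 101 and 123 against 101 and 108 CPM, groups that overlap (0.10, SE 0.15, adjusted p = 0.745). Without ERRγ library 2 its log2 fold change was -0.06. Of the counts of these 3 genes, Atp5g3 held 82.1% and 79.9% with ERRγ and 72.1% and 74.3% with GFP (Wilson 95% intervals, 81.5 to 82.8, 79.2 to 80.6, 71.0 to 73.3 and 73.3 to 75.3). The share of Atp5g2 was 7.94% and 9.41% with ERRγ (7.50 to 8.39 and 8.92 to 9.92) and 16.8% and 15.5% with GFP (15.8 to 17.7 and 14.7 to 16.3), while that of Atp5g1 stayed between 9.92% and 11.1% in the 4 libraries. Both shifts were larger than the counting intervals and than the gap between libraries of a virus; 2 libraries against 2 cannot give an exact permutation p below 0.333, two-sided, so none was run. The genes' mature coding parts are alike, and how reads that match more than 1 of them were counted is not given.

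**Figure D2:**
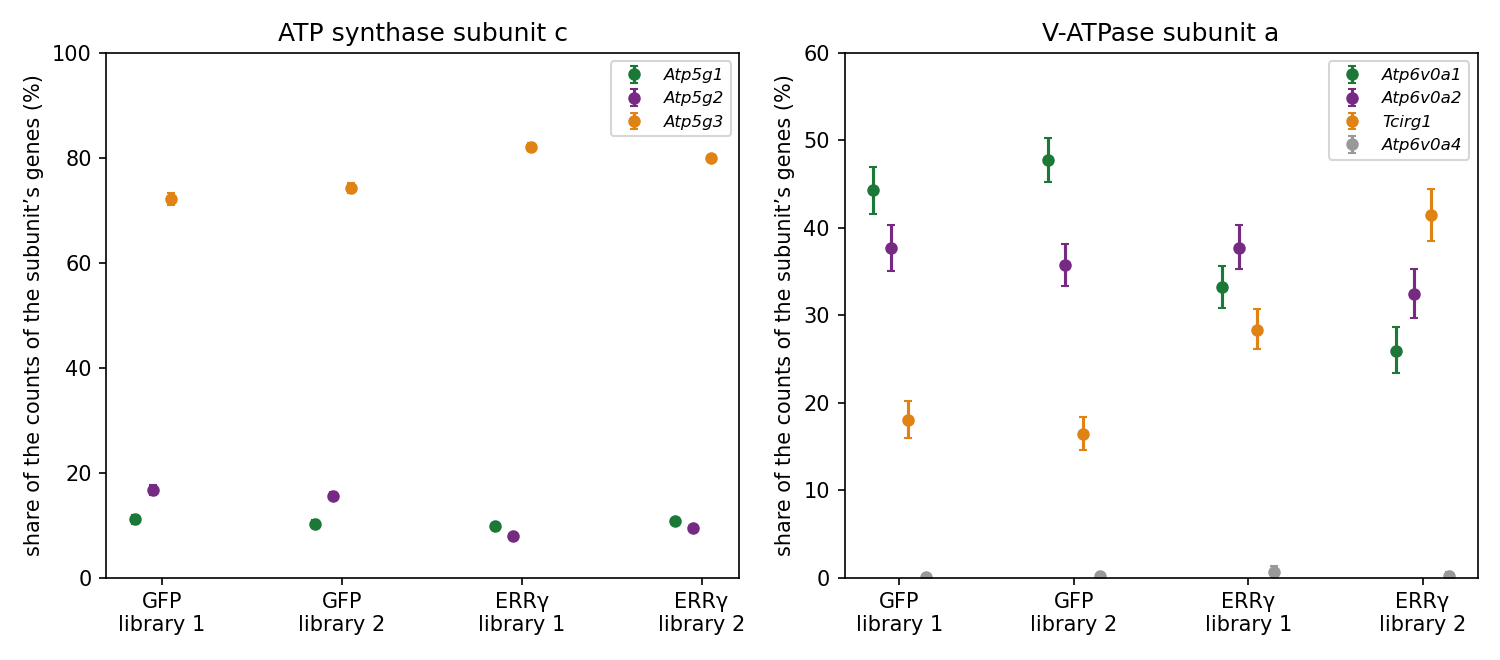
Share of counts (y axis, %, bars are Wilson 95% intervals for counting error) taken by each gene of ATP synthase subunit c and of V-ATPase subunit a in each library (x axis). The Atp5g2 share is 15.5% to 16.8% with GFP and 7.94% to 9.41% with ERRγ, and for subunit a the Tcirg1 share goes from 16.4% to 18.0% with GFP to 28.4% to 41.4% with ERRγ.

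The peripheral stalk holds the F1 head still while the rotor turns, and 2 of its 4 genes rose. Atp5f1, subunit b, which spans from the membrane to the head (chromosome 3, 105942698 to 105960099, minus strand), had 215 and 205 CPM with ERRγ and 105 and 125 CPM with GFP, a 1.82-fold rise (a log2 fold change of 0.87 with SE 0.14, adjusted p = 0.0128). Atp5o, the OSCP subunit that joins stalk and head (chromosome 16, 91925214 to 91931687, minus strand), had 229 and 220 against 153 and 143 CPM, a 1.52-fold rise (0.61, SE 0.13, adjusted p = 0.0336). The remaining pair lay in the same order without passing. Atp5j, subunit F6, had 90.5 and 107 against 69.3 and 67.3 CPM (0.53, SE 0.14, adjusted p = 0.0681), and Atp5h, subunit d, had 208 and 232 against 176 and 169 CPM (0.35, SE 0.13, adjusted p = 0.164). For all 4 stalk genes the groups did not overlap, with ERRγ higher, as was so for 27.4% of all genes tested. Atp5f1 and Atp5j overlap Wdr77 and Gabpa on the opposite strand, and GENCODE places a second, longer locus also named Atp5o over part of Atp5o.

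Small membrane subunits of Fo sit where paired enzymes bend the inner membrane into cristae, and 2 of 4 rose. Atp5l, subunit g (chromosome 9, 44912557 to 44920742, minus strand), the other rising member with a half-site in its promoter, had 126 and 128 CPM with ERRγ and 69.7 and 73.8 CPM with GFP, a 1.76-fold rise (a log2 fold change of 0.82 with SE 0.13, adjusted p = 0.0107). Usmg5, which encodes the subunit DAPIT (chromosome 19, 47083464 to 47090647, minus strand), had 143 and 170 against 98.8 and 98.3 CPM, a 1.59-fold rise (0.67, SE 0.14, adjusted p = 0.0326). It overlaps Taf5 on the opposite strand. Atp5j2, subunit f, had 321 and 331 against 255 and 211 CPM (0.48, SE 0.15, adjusted p = 0.0947; DESeq2 adjusted p = 0.0443), and Atp5k, subunit e, had 119 and 124 against 102 and 64.6 CPM (0.55, SE 0.21, adjusted p = 0.168). For Atp5k the GFP libraries were 0.66 apart on the log2 scale, so its value rests on which GFP library is used: leaving out GFP library 2 gave 0.25, and leaving out GFP library 1 gave 0.91.

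None of the genes that control or assemble the enzyme passed the test. Atpif1 encodes IF1, the inhibitor that blocks the enzyme from running backward, and had 304 and 329 CPM with ERRγ and 268 and 273 CPM with GFP (a log2 fold change of 0.23 with SE 0.13, adjusted p = 0.349). Its groups did not overlap, but the difference did not pass, and its fold of 1.17 stood beside 1.52 to 2.19 for the 10 members that rose. The assembly factor genes were low: Atpaf1, whose protein binds β, had 10.5 and 9.98 against 7.47 and 6.28 CPM (0.58, SE 0.28, adjusted p = 0.269), and Atpaf2, whose protein binds α, had 13.8 and 17.5 against 13.0 and 9.69 CPM (0.47, SE 0.26, adjusted p = 0.335). These genes had 70 to 177 counts per library, and their SE stood beside a median SE of 0.14 over the family, so changes of the size seen for Atp5o were not detectable for them. A last pair carries the family's symbol for historical reasons. Atp5sl, now named Dmac2 and known for complex I assembly, had 29.1 and 27.96 against 19.1 and 21.0 CPM (0.51, SE 0.17, adjusted p = 0.130). Atp5s, a coupling factor B homolog, had 6.78 and 3.36 against 5.93 and 4.22 CPM (0.01, SE 0.44, adjusted p = 0.996), and its sign turned between settings. The mitochondrially encoded subunit genes of Fo were not analysed here.

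**Figure D3:**
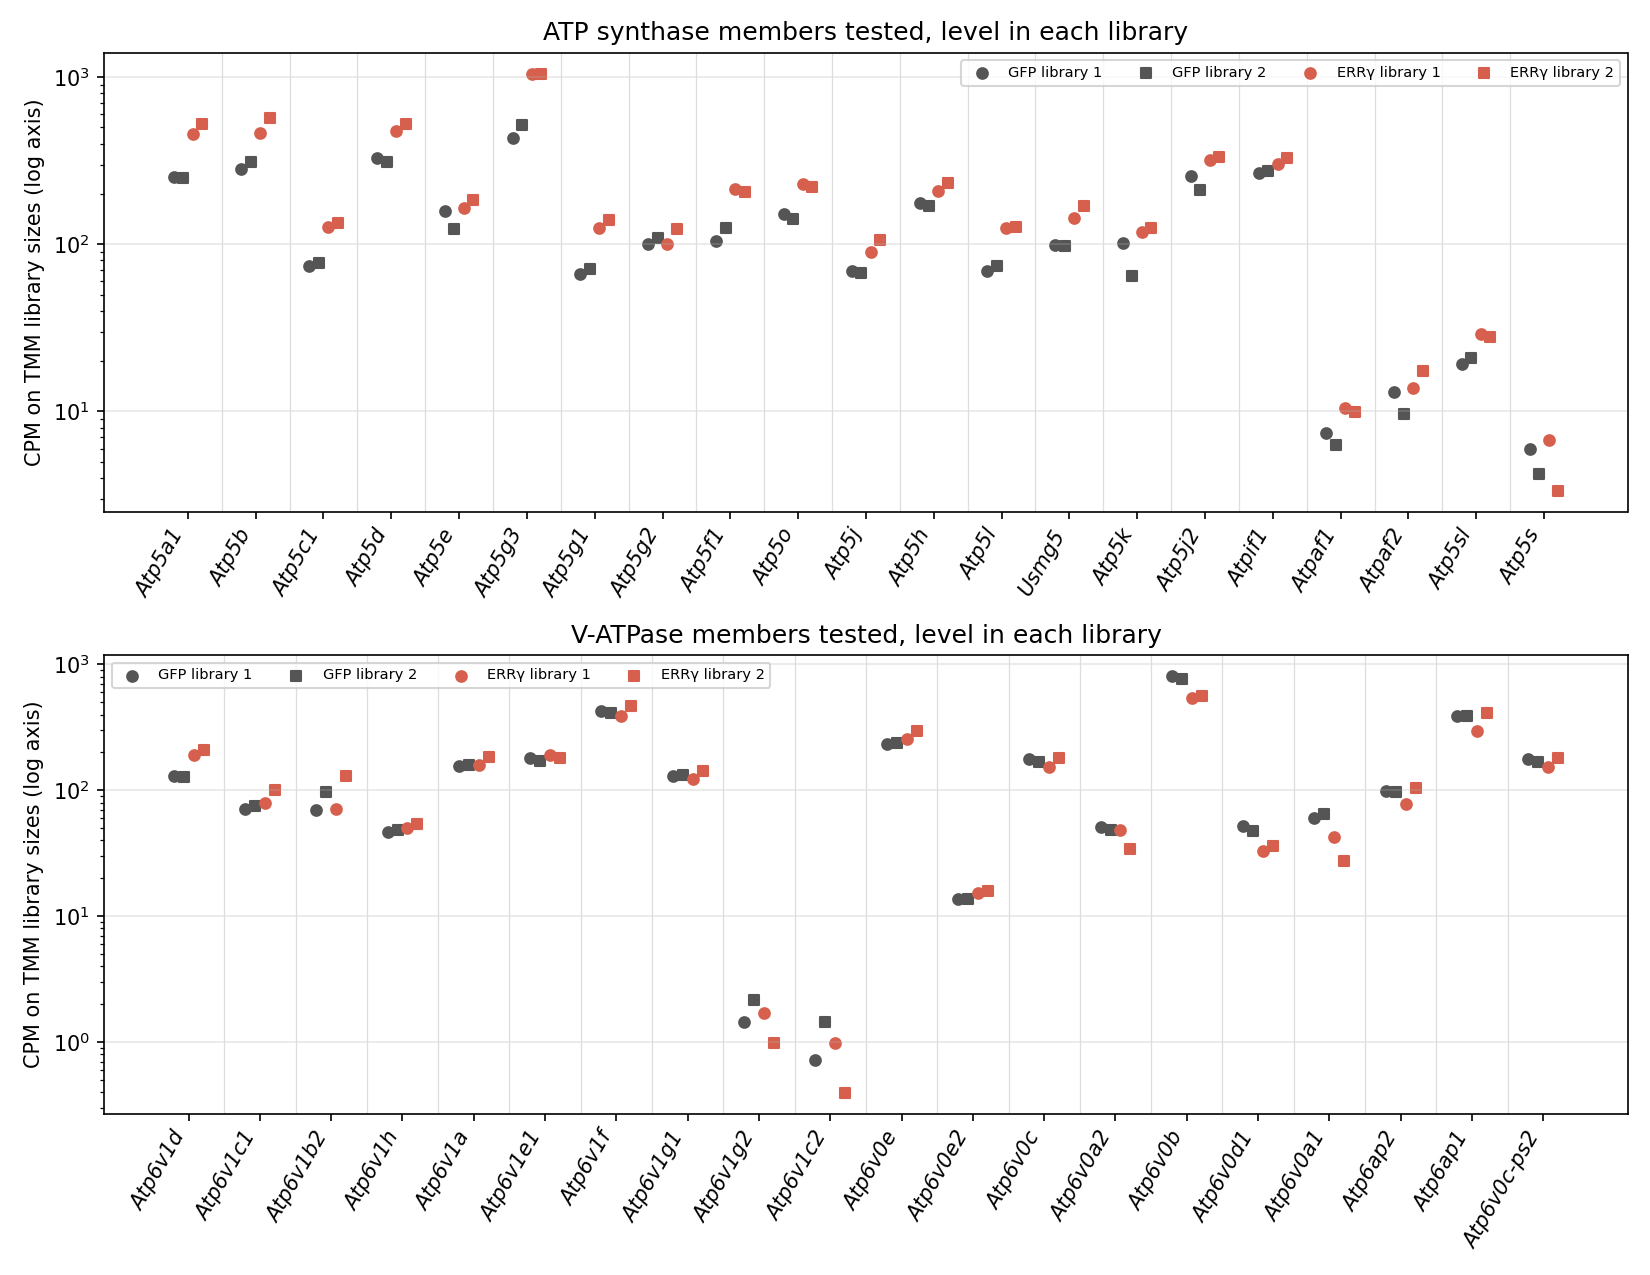
CPM on a log axis (y) of every tested member in each of the 4 libraries (grey, GFP; red, ERRγ; circles, library 1; squares, library 2), ordered by place in the enzyme. In the upper panel red lies above grey except for Atp5g2 and Atp5s; in the lower panel red lies above grey for 5 genes and below it for 4, and they mix for the rest.

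In the V1 head of the V-ATPase, 1 of 10 tested genes rose. Atp6v1d, subunit D, the shaft that turns in V1 (chromosome 12, 78840725 to 78861638, minus strand), had 190 and 211 CPM with ERRγ and 130 and 128 CPM with GFP, a 1.55-fold rise (a log2 fold change of 0.63 with SE 0.13, adjusted p = 0.0306). Like its counterpart Atp5c1 in ATP synthase it forms a rotor shaft, and its fold was near that of Atp5d and Atp5o. The catalytic subunit A gene Atp6v1a, which has the E-box core in its promoter, had 160 and 183 against 155 and 160 CPM, groups that overlap (0.12, SE 0.14, adjusted p = 0.663). Its partner subunit B was counted from Atp6v1b2 alone, while Atp6v1b1, the form of acid-secreting epithelia, had no count, which allows up to 0.307 CPM. Atp6v1b2 differed more within each virus than between them: 71.6 and 130 CPM with ERRγ and 70.4 and 96.7 CPM with GFP (0.27, SE 0.28, adjusted p = 0.610). Atp6v1c1, subunit C, which fastens V1 to V0 and leaves when the pump is switched off, had 80.0 and 101 against 71.3 and 75.0 CPM (0.31, SE 0.16, adjusted p = 0.285). The other abundant V1 genes lay within 0.14 of 0 on the log2 scale: Atp6v1f (0.02), Atp6v1g1 (0.01), Atp6v1e1 (0.07) and Atp6v1h (0.13). Tissue-restricted forms were near the floor, with 4 to 16 counts per library for Atp6v1c2, 10 to 24 for Atp6v1g2, at most 6 for Atp6v1g3 and at most 1 for Atp6v1e2.

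In V0, the proton-carrying part, no gene passed edgeR's test, and Atp6v0a1, described below with the other genes of its subunit, had the lowest value of the tested members. Atp6v0b, which encodes the c″ subunit of the rotor ring (chromosome 4, 117884326 to 117887333, minus strand), was the most abundant V-ATPase transcript, with 546 and 566 CPM with ERRγ and 809 and 760 CPM with GFP. The difference was 1.41-fold downward (a log2 fold change of -0.50 with SE 0.13, adjusted p = 0.0677, and 0.0116 to 0.0740 in other fits of all libraries). Atp6v0d1, subunit d, which links the ring to the V1 shaft (chromosome 8, 105524465 to 105566047, minus strand), had 33.0 and 36.2 against 51.8 and 47.4 CPM (-0.52, SE 0.14, adjusted p = 0.0749). Both had ERRγ libraries below GFP libraries, outside the spread between libraries of a virus, but short of the threshold over all genes. The ring's main subunit c, Atp6v0c, had 154 and 182 against 176 and 167 CPM (-0.03, SE 0.14, adjusted p = 0.930), and the row of its processed pseudogene Atp6v0c-ps2 held nearly the same counts, 1 to 8 more in each library. These rows therefore share reads and cannot be told apart; without the pseudogene the family's median was 0.01. The e subunit genes Atp6v0e, with 257 and 296 against 234 and 240 CPM (0.22, SE 0.14, adjusted p = 0.379), and Atp6v0e2 (0.19, SE 0.22) had values above 0. Atp6v0d2, known from osteoclasts, had 2 counts in GFP library 2 and none elsewhere. The ductal and macrophage marker sums given above were also lower with ERRγ in both libraries, though Cftr and Csf1r of these lists were higher. Their part in the V0 values was not tested.

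Subunit a fixes the organelle a V-ATPase goes to, and its genes shifted against each other. Atp6v0a1 (chromosome 11, 101009452 to 101063719, plus strand) had 42.4 and 27.6 CPM with ERRγ and 59.95 and 64.98 CPM with GFP, a 1.78-fold difference downward just outside the threshold (a log2 fold change of -0.84 with SE 0.21, adjusted p = 0.0532). The call depended on the method: limma-voom, DESeq2, RLE scaling, the unfiltered fit and the fit with the replicate number as a block each passed it, and leaving out ERRγ library 2 gave -0.56, ERRγ library 1 -1.18. Atp6v0a2, the Golgi and endosome form, had 48.2 and 34.5 against 51.0 and 48.6 CPM (-0.27, SE 0.18, adjusted p = 0.423). Atp6v0a4, the form of renal and inner ear acid-secreting cells, had 10 and 2 counts against 1 and 2. The a3 form is encoded by Tcirg1 (chromosome 19, 3896050 to 3907133, minus strand), whose symbol lies outside the family's pattern; it is known for lysosomes and secretory lysosomes of osteoclasts. Tcirg1 had 36.2 and 44.1 CPM with ERRγ and 24.3 and 22.3 CPM with GFP, a rise (0.78, SE 0.17, adjusted p = 0.0348). Of the counts of these 4 genes, Atp6v0a1 held 33.2% and 25.9% with ERRγ (30.8 to 35.7 and 23.4 to 28.6) and 44.3% and 47.7% with GFP (41.6 to 47.0 and 45.2 to 50.2). Tcirg1 went the other way, with 28.4% and 41.4% (26.1 to 30.8 and 38.5 to 44.4) against 18.0% and 16.4% (16.0 to 20.2 and 14.6 to 18.4). Both shares were further from the GFP values in ERRγ library 2 than in library 1, and the ERRγ libraries' intervals do not overlap for either gene.

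The accessory proteins of the V-ATPase showed no shift beyond the spread of the ERRγ libraries. Atp6ap1, which encodes Ac45, had 298 and 409 CPM with ERRγ and 387 and 389 CPM with GFP (a log2 fold change of -0.13 with SE 0.17, adjusted p = 0.697). Atp6ap2, the prorenin receptor gene, had 78.2 and 105 against 99.0 and 97.8 CPM (-0.10, SE 0.17, adjusted p = 0.763). For both, the GFP libraries were nearly equal and the ERRγ libraries lay on either side of them. Atp6ap1l had no count in any library.

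Summed over all members, ATP synthase transcripts stood at 4772 and 5148 CPM in ERRγ libraries 1 and 2 and at 3036 and 3035 CPM in the GFP libraries, 1.63 times as high by the means. The V-ATPase sums were 2888 and 3327 CPM with ERRγ and 3276 and 3230 CPM with GFP, groups that overlap. They include both Atp6v0c and Atp6v0c-ps2, so reads shared by these rows enter more than 1 time. This also holds for the ratios that follow, except those of core subunits only. Within a library, where scaling cancels, the ATP synthase sum was 1.65 and 1.55 times the V-ATPase sum with ERRγ and 0.927 and 0.940 times with GFP (means 1.60 ± 0.0746 and 0.933 ± 0.00918, SD, n = 2). The balance of the families thus differed 1.71-fold between viruses, more than the spread between libraries of a virus. With core subunits only, leaving out accessory, assembly, inhibitor and pseudogene rows, the ratio was 1.87 and 1.81 against 1.04 and 1.06. Without the highest gene of each family (Atp5g3 and Atp6v0b) the difference was 1.48-fold, a smaller value.

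**Figure D4:**
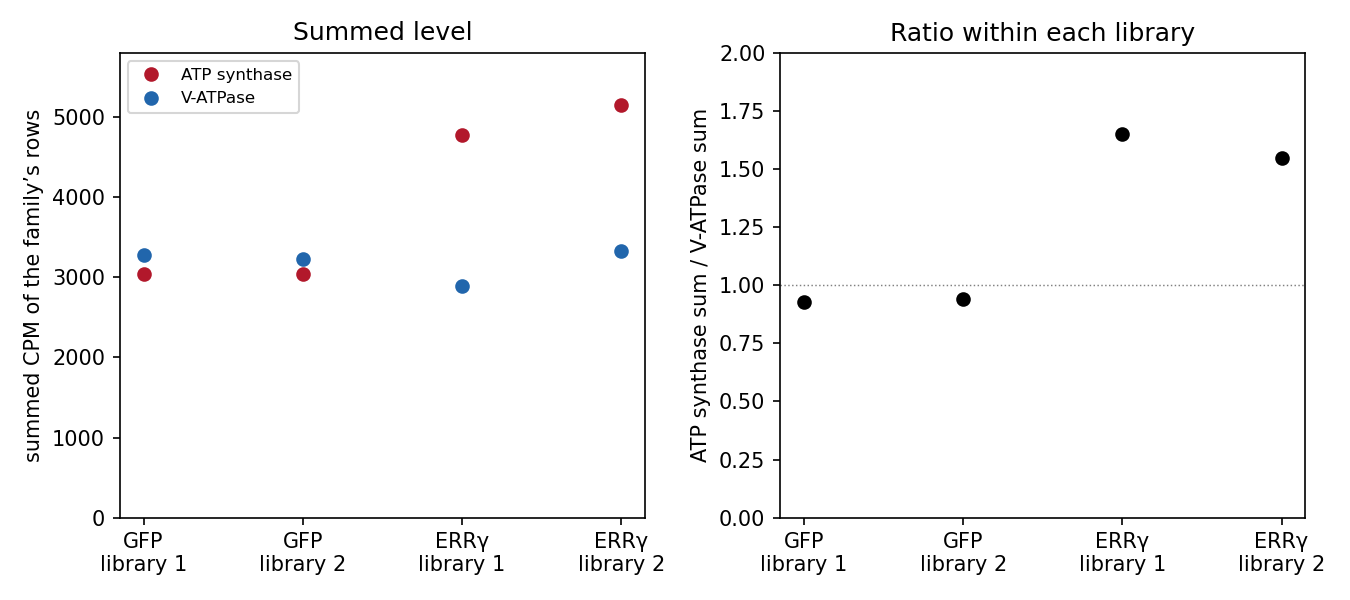
Left, summed CPM of the 21 ATP synthase and 26 V-ATPase rows in each library; right, the ratio of the 2 sums within each library (dotted line, equal sums). ATP synthase goes from 3035 and 3036 CPM with GFP to 4772 and 5148 CPM with ERRγ, and the ratio from 0.927 and 0.940 to 1.65 and 1.55.

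ERRγ library 2 held far more Esrrg counts than library 1, so the members were also read in each ERRγ library against the same GFP mean. The median log2 ratio of ATP synthase members was 0.54 in library 1 and 0.62 in library 2, and that of V-ATPase members was -0.11 and 0.09, against -0.01 and -0.02 for all genes tested. Atp5g3 was the same in both (1044 and 1046 CPM), and Atp5f1 and Atp5o were slightly lower in library 2. Atp5b differed most among the 10 that rose, by 0.29 on the log2 scale. Among V-ATPase members above 5 CPM, Atp6v1b2 was 0.86 higher and Atp6v0a1 0.62 lower in library 2, Atp6v0a2 was 0.48 lower, and Atp6ap1 and Atp6ap2 were 0.46 and 0.43 higher. For the 10 ATP synthase members that rose, and for Atp6v1d, the ERRγ libraries differed by less than the viruses did. Passing the test largely requires this, so it is no separate result. Among members that did not pass, the gap between the ERRγ libraries exceeded the fitted change in both families. Examples are Atp6v1b2, Atp6v0a2, Atp6ap1 and Atp6ap2 of the V-ATPase and Atp5s and Atp5g2 of ATP synthase.

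**Figure D5:**
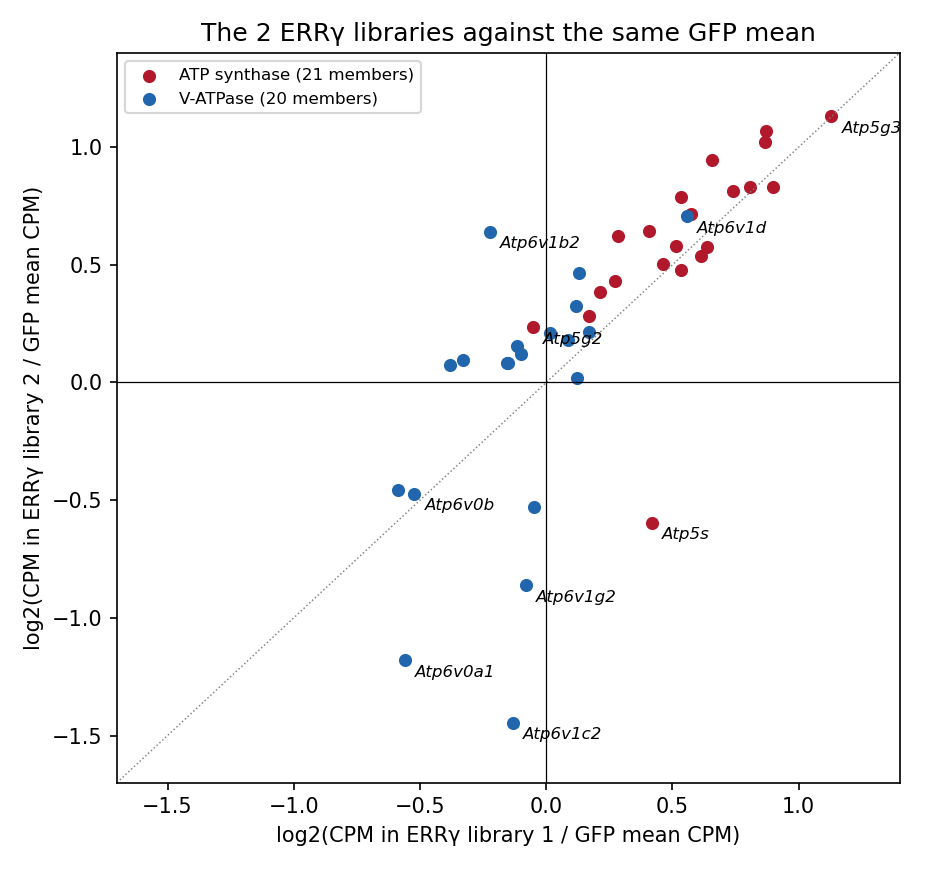
Each tested member's log2 ratio to the GFP mean CPM in ERRγ library 1 (x axis) and ERRγ library 2 (y axis); the dotted line marks equal values, and both axes share the GFP mean. ATP synthase points other than Atp5s follow the line, up to Atp5g3 at 1.13 in both, and V-ATPase points such as Atp6v1b2 and Atp6v0a1 leave it.

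Genes that work beside each enzyme were counted by list. Of 23 tested partners of ATP synthase (carriers, channels, cristae and assembly genes), 9 rose and none fell, or 39.1% rising beside 5.06% of all genes tested that rose and 1.78% that fell (median 0.63; at an unadjusted p under 0.05, 0 were lower, and limma-voom and DESeq2 called no fall). Slc25a5, an ADP/ATP carrier that exchanges the product of the synthase, had 262 and 289 CPM with ERRγ and 130 and 142 CPM with GFP (a log2 fold change of 1.01 with SE 0.14, adjusted p = 0.00614). The porin gene Vdac1 (1.10, adjusted p = 0.00481) and 2010107E04Rik, which encodes a small proteolipid subunit of the membrane part and lacks the family's symbol (0.87, adjusted p = 0.00905), rose as well. Of 24 tested partners of the V-ATPase (assembly, regulators and the nutrient-sensing Ragulator and Rag genes), Tcirg1 was the 1 that rose (4.17%, below the share over all genes) and none fell (median 0.10; 1 was lower at an unadjusted p under 0.05, and limma-voom and DESeq2 called no fall). Among 38 lysosomal genes, Lgmn, the protease legumain, was the 1 that rose (0.97, adjusted p = 0.0239; 2.63% of the list, again below that share) and none fell, with a median of -0.13. There, 3 were lower at an unadjusted p under 0.05, and limma-voom and DESeq2 called no fall. Lysosomal genes summed to 5875 and 7053 CPM with ERRγ and 6221 and 6874 CPM with GFP, groups that overlap as those of the V-ATPase do.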

How the data were processed

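The authors deposited whole-number read counts per gene symbol, 1 table for each library, with no normalization. The submitters' processing notes list Bowtie2, edgeR and mm10 but give neither version nor role. What counted the reads, on which annotation, with what use of strand and of multi-mapped reads, is not given in the sources used here. Rows were kept by filterByExpr (minimum count 10, group given), leaving 13070 of 17888 rows with a count. Counts were scaled by TMM and tested with edgeR 4.0.16 in R 4.3.3 (glmQLFit, glmQLFTest, group only, 4 libraries, two-sided). Adjusted p-values are Benjamini-Hochberg over all genes tested, threshold 0.05; the SE is the log2 fold change over the root of F. The fit was tested on simulated data. Library totals, RLE factors, other filters, DESeq2 1.42.0, limma-voom 3.58.1, a replicate block, removal of Rn45s and leaving out each library were tried. Every member could be named; of other lists, up to 4 with the smallest p. Members and lists were chosen with earlier results of these data known. Positions and overlaps come from GENCODE M21 (GRCm38, the assembly of mm10), matched for 47 of 47 members, Atp5sl as Dmac2. Intervals and floors cover counting error only, since no molecular identifiers are mentioned. Replicates of each virus differed beyond counting error (chi-square per degree of freedom, 24.0 with ERRγ and 14.9 with GFP). Some genes of the other lists are not reported here.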

Additional observations from a re-analysis of the deposited data

How the results depend on the processing

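In the 8 alternative fits of all 4 libraries all 11 calls were kept. The number of V-ATPase members that fell was 0 in the reported fit, 1 with RLE size factors, 1 with limma-voom, 1 with the replicate block, 2 with DESeq2 and 3 with no filter on low counts; that of all genes past the threshold went from 894 to 2009 with no filter. The replicate block changed no other call among the members (10 ATP synthase rises, 1 V-ATPase rise). The labels do not say what same-numbered libraries share. Over all genes tested their deviations correlated at 0.0093, which cannot exclude a shared preparation that touches few genes. Islet markers summed to 26.5 and 7.31 CPM in ERRγ libraries 1 and 2 and to 124 and 17.5 CPM in GFP libraries 1 and 2. Whether the libraries are paired was not tested. When a library was left out, ATP synthase rises ranged from 0 to 14, V-ATPase rises from 0 to 3, V-ATPase falls from 0 to 3 and all calls from 99 to 2695. The medians then ranged from 0.53 to 0.68 for ATP synthase and from -0.11 to 0.090 for the V-ATPase. The ratio of summed levels was 1.48-fold without the highest member of each family. Signs turned only for members that did not pass. Atp5s was -0.0015 with no filter, -0.00044 with DESeq2, -0.031 with limma-voom and -0.055 with the replicate block. With a library left out, log2 fold changes spanned -0.59 to 0.42 for Atp5s, -0.056 to 0.24 for Atp5g2, -0.16 to 0.081 for Atp6v0c-ps2, -0.16 to 0.085 for Atp6v0c, -0.10 to 0.12 for Atp6v1g1, -0.12 to 0.15 for Atp6v1f, -0.23 to 0.64 for Atp6v1b2, -0.33 to 0.095 for Atp6ap2 and -0.38 to 0.076 for Atp6ap1.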

Other observations

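Outside the rotary enzymes, 2 genes of P-type ATPases passed edgeR's test in opposite directions. Atp1b1, which encodes a β subunit that brings its pump to the cell surface, had 416 and 415 CPM in ERRγ libraries 1 and 2 and 211 and 182 CPM in GFP libraries 1 and 2, and it rose (log2 fold change 1.08, SE 0.14, adjusted p = 0.00534). The phospholipid flippase gene Atp11a fell, from 58.1 and 49.99 CPM with GFP to 33.6 and 32.4 CPM with ERRγ (-0.71, SE 0.15, adjusted p = 0.0294). For both genes the groups did not overlap, as was so for 27.4% of all genes tested upward and 26.6% downward. They are named from a longer list that is not reported in full here.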
